A study of Mus musculus with 8 samples.

Results

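The features described here are 2821 probes for genomic intervals, each named on the array only by a chromosome, a start, an end and a strand letter, as in chr5:14943275-14944205 with F for forward or R for reverse. They were taken from 16181 interval probes, which carried 4607 interval names and made up 29.1% of the 55681 probes that were not controls. A name was kept when at least 1 of its probes was called well above background by the scanner software in at least 4 of the 8 hearts, and the brightest such probe stood for it. The 2821 kept names, called members here, were 61.2% of the 4607 names and covered 2271 of the 3540 distinct intervals. Positions are those of the array's own annotation, mouse build mm9. A further 13 probes under 3 interval names without a strand letter were left out. The files give no gene, exon or transcript for these intervals and do not state that their transcripts are noncoding, so the members are called interval probes throughout.

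RNA was measured in frozen heart tissue, a portion of atrium and ventricle, from 4 wild-type mice and 4 mice homozygous for a mutant Pus1. Pus1 encodes a pseudouridine synthase, an enzyme that modifies uridines in tRNA and other RNAs. All animals were of the strain C57BL/6J with 5 generations of backcrossing, were 14 to 16 weeks old, and each genotype had 2 females and 2 males. Each of 4 two-colour Agilent arrays held 1 wild-type and 1 mutant heart of the same sex, females on arrays 1 and 2 and males on arrays 3 and 4. The dyes were swapped within each sex: the mutant carried Cy5 on arrays 1 and 3, and the wild type carried it on arrays 2 and 4. Hearts carry the number of their array. The animals of a genotype were separate individuals, and how Pus1 was altered is not stated in the labels.

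Long noncoding RNAs are transcripts that are not translated into a protein, and mammalian genomes give rise to many of them between, within and antisense to protein-coding genes. They are often present at lower levels than messenger RNAs and in fewer cell types. A few have known roles, such as Xist, which silences one X chromosome in female cells, and Mhrt, a heart transcript antisense to a myosin heavy chain gene. Expression arrays of this kind carry several probes each for intervals in which such transcripts had been proposed, often on both strands because the direction of transcription was not certain.

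The genotype, sex and tissue labels were checked first. Pus1 itself had a normalised log2 level of 9.10 ± 0.15 in wild-type and 7.25 ± 0.22 in mutant hearts (mean ± SD, n = 4 each), a log2 ratio of -1.85 (SE 0.13) that was negative on all 4 arrays. Its limma adjusted p was 1, as it was for every member. Xist lay between 9.25 and 9.92 in the 4 females and between 6.27 and 6.67 in the 4 males. All 8 ventricular myocyte markers were well above background in all 8 hearts. Atrial markers were uneven, with a median log2 level of 13.26 to 15.03 in wild type 2, mutant 2 and mutant 4 and of 8.17 to 8.97 in the other hearts, and erythroid markers stood at 16.55 to 16.77 in wild type 2 and mutant 1 against 13.18 to 13.91 elsewhere. Of 6 listed adipocyte markers 3 were measured. Their median was high in the hearts with high atrial markers, at 12.51 to 14.78 against 8.17 to 9.92. The summed level of the 3 moved less, from 15.9 to 16.2 in wild-type and from 15.7 to 16.7 in mutant hearts. In whole tissue, fewer cells of a type and less RNA per cell cannot be told apart.

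Interval probes were detected less often than probes for RefSeq messenger RNAs (accessions beginning NM_). In the wild-type hearts 27.6%, 31.0%, 34.6% and 38.9% of the 16181 interval probes were well above background, in the order of wild type 1 to 4. In the mutant hearts the shares were 39.0%, 32.6%, 24.7% and 35.9%, in the order of mutant 1 to 4. The 2 genotypes overlapped, with mutant 3 lowest and mutant 1 and wild type 4 highest of the 8 hearts. The mean was 33.0% ± 4.88 in wild type and 33.1% ± 6.12 in mutants (SD, n = 4 each). Of the 26640 NM_ probes, 63.5% ± 1.73 were detected in wild-type and 63.7% ± 2.84 in mutant hearts, so the share varied less between hearts for NM_ than for interval probes. The highest share of interval probes was 1.58 times the lowest. These are shares of probes that were designed differently and are given as a description.

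Most members were seen in every heart. Of the 2821, 1909 (67.7%) were well above background in all 8 hearts, 290 in 7, 220 in 6, 229 in 5 and 173 in exactly 4. For NM_ features that passed the same filter, 88.6% were detected in all 8 hearts. Just inside the limit of 4 hearts, the 173 members had a median level of 7.01 on the log2 scale, and the 150 names whose best probe reached 3 hearts had a median of 6.90 just outside it. Of all 4607 names, 1227 had no probe above background in any heart.

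No member was well above background in all hearts of one genotype and in none of the other. By sex, 3 of the 2821 members were detected in the 4 females and in no male, and 1 in the 4 males and in no female. No share over all features is given beside these counts, so they are not read as unusual. These 4 were singled out after their values were seen. The male one, chrX:121004130-121007360 on the reverse strand, had log2 levels of 8.55 and 9.14 in the wild-type males and 7.37 and 8.56 in the mutant males. In the females it stood at 6.27 and 6.79 in wild type and 6.55 and 6.66 in mutants. The sexes did not overlap in level, which its choice by detection in males only favours. The 3 female ones, all on the reverse strand, lay closer to background. In chr8:35652473-35703370 females ranged from 7.14 to 7.52 and males from 6.69 to 7.09, without overlap, while chr13:64018565-64082570 (7.04 to 7.36 against 6.75 to 7.10) and chr7:114369337-114407862 (7.07 to 7.30 against 6.89 to 7.18) overlapped.

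The members were dimmer than the NM_ features. Their median normalised log2 level was 7.80, 7.79, 8.04 and 8.04 in wild type 1 to 4 and 8.01, 7.98, 7.66 and 7.89 in mutant 1 to 4. The genotypes overlapped, mutant 3 again being lowest. Medians of NM_ features lay between 9.36 and 9.43, and the difference within a heart, interval minus NM_, was -1.49 ± 0.15 (mean ± SD over 8 hearts), from -1.75 to -1.32. Levels are probe brightness and depend on each probe's sequence, so the difference describes 2 sets of probes and not amounts of transcript.

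Over the mean of the 8 hearts, the members had a median log2 level of 7.87, with quartiles of 7.35 and 8.83. A level above 10 was reached by 364 members (12.9%) against 5394 NM_ features (40.2%), and a level above 14 by 40 members (1.42%) against 653 (4.87%). The 95th percentile was 11.72 for the members and 13.94 for NM_ features, and the brightest stood at 17.6 and 18.59. The members' intervals had a median length of 11.9 kb (quartiles 3.29 and 28.2), and the 1786 names that did not pass had a median of 8.23 kb (0.727 and 20.8), with a median of 3 probes per name in both.

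The 10 brightest members were bright in every heart, and none of their spots was saturated. The brightest, chr19:5801802-5802597 on the reverse strand, had log2 levels of 18.42, 17.34, 17.73 and 17.56 in wild type 1 to 4 and 17.23, 17.87, 17.14 and 17.53 in mutant 1 to 4. The 2 genotypes overlapped, and the log2 ratio of mutant over wild type was -0.32 (SE 0.17, limma adjusted p = 1). Next came chr14:78924115-78938125 (forward), with 17.06 to 17.86 in wild-type and 17.36 to 17.52 in mutant hearts, and chr6:116092274-116144199 (forward), with 16.51 to 17.15 and 16.55 to 16.93. The steadiest of the 10 was the 125-base interval chr4:33364774-33364898 (reverse), whose 8 levels lay within 0.42 of each other, from 16.54 to 16.96. The remaining 6 had means between 16.38 and 16.69: both strands of chr12:73838608-73862621, the forward strands of chr4:141527564-141547339, chr6:83368261-83407280 and chr2:31714946-31716972, and the reverse strand of chr2:168804720-168854970.

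Some of these bright members followed the dye. For chr2:31714946-31716972 (forward) the hearts labelled with Cy3 had levels of 17.26, 16.98, 16.96 and 16.49, and those labelled with Cy5 had 15.78, 16.00, 16.05 and 15.54. Every Cy3 heart lay above every Cy5 heart, and the mutant over wild-type log2 ratio alternated accordingly, from -1.48 and 0.98 on arrays 1 and 2 to -0.91 and 0.96 on arrays 3 and 4. With a dye term for each probe the ratio was -0.11 (SE 0.14).

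Probes for one interval did not always read alike. Of the members, 1422 had at least 2 probes that passed, and the brightest and dimmest of these were a median of 0.85 log2 units apart (quartiles 0.41 and 1.61). In 272 of them (19.1%) the span exceeded 2. Averaging the probes that passed left chr4:33364774-33364898 at 16.71 but lowered chr14:78924115-78938125 (forward) from 17.43 to 9.71, chr12:73838608-73862621 (reverse) from 16.69 to 10.93 and chr2:168804720-168854970 (reverse) from 16.64 to 11.87. The level given for a long interval is therefore that of 1 probe.

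Forward and reverse probes were detected about equally often. Of 2318 forward names 1392 (60.1%) were members, and of 2289 reverse names 1429 (62.4%). Among the 1067 intervals with probes on both strands, both were members in 550 (51.5%), the forward strand alone in 176, the reverse strand alone in 211 and neither in 130 (12.2%). Intervals designed on 1 strand were members in 53.2% of 1251 forward and 54.7% of 1222 reverse names. In every heart a somewhat larger percentage of reverse than of forward probes was detected, for instance 23.6% forward and 25.9% reverse in mutant 3, and 37.1% and 40.8% in wild type 4.

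On 549 intervals with a complete pair of members, the forward minus reverse difference in mean level had a median of 0.04 on the log2 scale (quartiles -0.85 and 1.19). Within each heart the median difference was between 0.01 and 0.16. The strands of 1 interval were often far apart: 168 pairs (30.6%) differed by more than 2, 93 with the forward and 75 with the reverse probe brighter. That percentage rested on the choice of probe and filter: it was 18% when the probes of a strand were averaged, 24.3% with no filter on dim probes and 43.7% with processed signals. Across the pairs the 2 levels were weakly related (Pearson r = 0.156, Spearman rho = 0.128), a description over 549 intervals measured in the same libraries with different probes. In 144 of the 168 wide pairs the dimmer strand lay below 9.

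Each strand is represented by its brightest probe, so the differences named next are between 2 probes. The widest pair was chr14:78924115-78938125, forward over reverse by 9.72 ± 0.29 (mean ± SD over the 8 hearts), from 9.27 in mutant 2 to 10.21 in mutant 3. Its forward probe had a mean of 17.43 and its reverse probe of 7.71. The other pairs led by the forward strand were chrX:18744367-18853992 at 8.67 ± 0.66, chr7:82902248-82955248 at 7.08 ± 0.37 and chr6:116092274-116144199 at 6.80 ± 0.35. Led by the reverse strand were chr11:22681800-22707775 at -7.62 ± 0.19, chr13:108548345-108679004 at -7.30 ± 0.55, chr5:26323150-26357875 at -6.62 ± 0.49 and chr2:168804720-168854970 at -6.48 ± 0.95. In all 8 of these pairs the same strand was brighter in all 8 hearts. The last had the widest range, from -8.41 in mutant 3 to -5.20 in mutant 2. With the probes of a strand averaged, the chr14 difference fell to 2.47 ± 0.24 (4 probes on each strand), and those on chr7 and chr6 fell to 3.93 and 5.32. The chr13 and chr2 differences became -3.11 and -3.66. The pairs on chrX, chr11 and chr5 had 1 probe a strand and kept their values.

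Both strands were bright in a few intervals. In chr12:73838608-73862621 the forward probe had a mean level of 16.48 and the reverse probe of 16.69, a difference of -0.21 ± 0.24. In chr5:34696192-34722842 the means were 14.46 and 12.32, in chr17:39960567-39992817 they were 13.80 and 12.30, and in chr8:91569369-91594119 they were 12.13 and 11.97. Averaging the probes of a strand lowered all 8 levels, to 12.27 and 10.93 on chr12, 10.25 and 8.56 on chr5, 11.95 and 11.43 on chr17, and 9.78 and 10.23 on chr8. In the interval on chr8 the order of the strands changed between hearts. Between the brightest probes the difference was 1.21 and 1.00 in wild type 1 and 2 and 1.57 in mutant 3, and it was between -1.15 and 0.05 in the other 5 hearts. Its reverse probe moved from 10.23 in mutant 3 to 12.92 in wild type 4, while its forward probe kept to 11.62 to 12.55.

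No member differed between genotypes past the threshold. The test was limma on the within-array log2 ratios with a dye term for each probe, adjusted by Benjamini-Hochberg over all 21823 features. It called 0 of 2821 members, against 0% of all features tested (percent called). Pus1, with a log2 ratio of -1.85, was not called either, so the count of 0 does not show that members were unchanged. At an unadjusted p under 0.05 there were 15 members (0.532%) against 1.03% of all features. The ratio had the same sign on all 4 arrays in 116 members (4.11%), against 4.88% of all features. Of these members 34 were higher and 82 lower in mutants, beside 510 and 556 of all features. The members' median log2 ratio was -0.05 (quartiles -0.11 and 0.02), beside a median of -0.01 over all features. That sign was not stable: the median was 0.03 without array 3, 0.01 without array 4 and 0.02 with median centring in place of loess, which also moved the median of all features to 0.08.

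The members named next had the smallest p of those with 1 sign on all 4 arrays. All are below the threshold, with a limma adjusted p of 1, and they are given as values. Largest among those with higher mutant levels was chr5:137395007-137412976 (forward), at 7.50, 7.57, 7.41 and 7.12 in wild type 1 to 4 and 8.65, 8.01, 8.31 and 7.29 in mutant 1 to 4. The groups overlapped only through mutant 4, and the log2 ratio was 0.66 (SE 0.12). For chr6:83541250-83560425 (forward) wild-type hearts lay between 10.12 and 10.56 and mutants between 10.62 and 10.95, without overlap, with a log2 ratio of 0.48 (SE 0.12). The reverse strand of chr19:16090063-16103160 also had no overlap, with 6.82 to 6.93 against 7.05 to 7.13 and a log2 ratio of 0.23 (SE 0.10). It was well above background in only 5 hearts, 2 wild-type and 3 mutant. Its mean level of 6.98 was close to the median of 7.01 for members just inside the detection limit, so this gap lies near background. The other 3 were the reverse strands of chr1:135956616-135957485 and chr6:86425510-86450160 and the forward strand of chr10:69669025-69686275, with log2 ratios of 0.25, 0.21 and 0.20. Averaging the probes of an interval left 0.12 for the first of these and 0.07 for the second. With processed signals the log2 ratios of the members of this paragraph, in the order named, were 1.22, 0.52, 0.55, 0.24, 0.19 and 0.26. Their sizes thus depended on the processing.

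With lower mutant levels, chr15:79764481-79809909 (reverse) had 10.25, 10.32, 10.39 and 10.77 in wild type 1 to 4 and 9.50, 9.65, 10.19 and 9.99 in mutant 1 to 4. The groups did not overlap and the log2 ratio was -0.60 (SE 0.14), which became -0.22 when the interval's probes were averaged. Next was chr5:110261075-110376700 (forward), with wild-type levels of 9.34, 9.54, 9.10 and 9.26 and mutant levels of 8.79, 9.08, 8.84 and 8.80. All mutants lay below all wild-type hearts, with a log2 ratio of -0.43 (SE 0.11). A neighbour on the same strand, chr5:110424250-110443025, had 8.85 to 9.35 in wild-type and 8.63 to 8.90 in mutant hearts, which overlapped, with a log2 ratio of -0.32 (SE 0.11). The remaining 3 were chr15:84752337-84752984 (reverse), chr4:145000941-145148666 (forward) and chr13:59245617-59245945 (reverse), with log2 ratios of -0.38, -0.32 and -0.26. With processed signals the log2 ratios of the members of this paragraph, in the order named, were -0.61, -0.45, -0.35, -1.12, -0.43 and -0.28.

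Pus1 also lies on chromosome 5. Within 1 Mb of the 2 members on that chromosome with lower mutant levels there were 8 members in all, a window chosen after the values were seen. Their log2 ratios ran from -0.43 to 0.12 with a median of -0.02, and only these 2 were negative on all 4 arrays. The reverse probe of chr5:110424250-110443025 had a ratio of 0.12, against -0.32 for its forward probe. On the whole of chromosome 5, 9 of 175 members (5.14%) were lower in mutants on all 4 arrays, and on the other chromosomes 73 of 2646 (2.76%). The 9 include the 2 members that set the window. Of all 21823 features 556 were lower on all 4 arrays, and no share over all features on chromosome 5 was at hand. The 2 shares were not tested against each other, and distances from Pus1 are not given here.

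The median genotype ratio of the members was above 0 on both female arrays and below 0 on both male arrays. On array 1 the members' median log2 ratio of mutant over wild type was 0.09 and on array 2 it was 0.17, both females. On arrays 3 and 4, males, the medians were -0.29 and -0.09. For NM_ features the 4 medians were 0.02, -0.04, 0.06 and 0.02. The fitted difference of the genotype effect, female minus male, had a median of 0.20 over the members (quartiles -0.10 and 0.71), beside -0.10 over NM_ features and -0.04 over all features.

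In the genotype by sex term 470 members (16.7%) passed a limma adjusted p of 0.05, against 9.31% of all 21823 features tested. Of these 469 (16.6%, against 9.19% of all features) had the higher ratio in females and 1 (0.0354%, against 0.119%) in males. The test had 1 residual degree of freedom per feature and the call did not hold in other fits of the same arrays. No member passed when the 2 channels were fitted separately or when the scanner software's processed signals were used. Without the dye term, a fit chosen after seeing the data, no member passed either. None of these fits called any feature of the whole set. Of the members 671 had an unadjusted p under 0.05, with no share over all features at hand. With an array also left out, 1 sex was left with 1 array, so no count is given for those fits. In 1415 members (50.2%) the ratios of the female arrays did not overlap those of the male arrays, against 37.4% of all features.

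The difference varied with brightness, with the highest median between 8 and 9 and the lowest over 12. Its median was 0.20 in 1531 members with a level under 8, 0.31 between 8 and 9, 0.21 between 9 and 10, 0.13 between 10 and 12 and -0.03 in 117 members over 12. The percentages called in these classes were 13.2%, 24.3%, 22.1%, 15.8% and 8.55%. In NM_ features the medians of the same 5 classes were -0.14, -0.17, -0.12, -0.07 and -0.05, with 3.19% to 8.16% called. Of features with NR_ or XR_ accessions, which RefSeq uses for noncoding transcripts, 130 of 661 (19.7%) passed, with a median difference of 0.11. A second probe of the same interval had the same sign of the difference as the brightest in 982 of 1415 members (69.4%).

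Called members, which were selected on these ratios, had a median log2 ratio of 0.77 on array 1, 0.78 on array 2, -1.18 on array 3 and -0.42 on array 4. Of 469 called members with all values, mutant 3 was the lowest of the 8 hearts in 410 (87.4%) and wild type 4 the highest in 340 (72.5%). Their median log2 level was 7.69, 7.61, 8.55 and 8.83 in wild type 1 to 4 and 8.58, 8.45, 7.19 and 8.43 in mutant 1 to 4. The wild-type males were thus above the wild-type females, and among mutants only mutant 3 stood low, with mutant 4 close to the females. Both wild-type males were above both wild-type females in 451 of the 469, while both mutant males were below both mutant females in 167. Over all members, mutant 3 was the lowest heart in 36.4% and wild type 4 the highest in 23.7%, and over NM_ features mutant 3 was lowest in 12.6% and highest in 25.1%. Mutant 3, wild type 1 and wild type 2 also had the lowest percentages of interval probes detected, at 24.7%, 27.6% and 31.0%. The 2 orders were not the same. Wild type 2 was second lowest in level, and detection was highest in mutant 1, at 39.0%. Detection and level both come from the brightness of interval probes, so a resemblance is partly built in. The part of detection in the result was not tested. Nor was that of the atrial, adipocyte and erythroid markers, whose levels by heart are given above.

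The member with the largest difference, chr5:14943275-14944205 (forward), had log2 levels of 9.17, 10.16, 12.49 and 13.22 in wild type 1 to 4 and 12.65, 12.03, 7.61 and 12.20 in mutant 1 to 4. It was high in wild-type males and in 3 of the 4 mutants, intermediate to low in wild-type females and lowest in mutant 3, so the genotypes overlapped. The difference was 5.62 (SE 0.94, limma adjusted p = 0.00583), and the adjusted p was 0.106 without the dye term. Leaving out array 3 or array 1 left 2.89, and leaving out array 2 or array 4 gave 8.36, in fits with no test.

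Its neighbours on the same strand followed it. In chr5:15146475-15170100 the levels were 9.59, 10.58, 12.77 and 13.43 in wild type 1 to 4 and 12.95, 12.32, 8.09 and 12.43 in mutant 1 to 4, with a difference of 5.39 (SE 0.91, limma adjusted p = 0.00613). In chr5:15033568-15033987 they were 8.52, 9.01, 11.14 and 11.84 and 11.30, 10.84, 7.48 and 11.06, with a difference of 4.52 (SE 0.68, limma adjusted p = 0.00436). Leaving out array 1 or 3 left 2.73 and 2.61 in these 2 members, and leaving out array 2 or 4 gave 8.05 and 6.43. Their limma adjusted p was 0.107 and 0.104 without the dye term. The order of high and low hearts was that of the first member, with mutant 3 lowest in both and no separation of the genotypes. Whether these intervals share sequence was not tested, and the 3 are not taken as independent observations.

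On the X chromosome, chrX:92139043-92140820 (reverse) had 9.34, 9.14, 11.07 and 10.97 in wild type 1 to 4 and 11.81, 11.80, 7.51 and 10.98 in mutant 1 to 4. Female mutants were highest, mutant 3 was lowest, and mutant 4 equalled its wild-type partner to within 0.01 on array 4. The difference was 4.34 (SE 0.61, limma adjusted p = 0.00411), with an adjusted p of 0.124 without the dye term. It was 2.65 or 6.03 with an array left out and 2.23 when the interval's probes were averaged. A further 3 X-linked members lay close together: chrX:120812236-121038407 (reverse), chrX:120976609-120977281 (forward) and chrX:120590872-120598071 (reverse). The first had levels of 7.34 and 7.12 in wild-type females and 10.65 and 11.20 in wild-type males, then 9.25 and 8.38 in mutant females and 6.63 and 10.49 in mutant males. All 3 were among the 5 members with the largest SD over the hearts, at 1.77, 1.76 and 1.63, beside 1.99 and 1.89 for the first 2 members on chromosome 5. In each of the 3 the same males stood above 10, both wild-type males and mutant 4, and mutant 3 stood at 6.63, 7.30 and 6.68. Their differences were 3.95, 3.66 and 3.90, with limma adjusted p of 0.00742, 0.00923 and 0.00616, and of 0.133, 0.135 and 0.119 without the dye term. With an array left out they were as low as 1.97, 1.72 and 2.05 and as high as 5.93, 5.60 and 5.75. The male-only member chrX:121004130-121007360 lies inside the span of the first.

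On chromosome 4, chr4:3009566-3009932 (reverse) had 8.17, 8.24, 10.11 and 10.62 in wild type 1 to 4 and 10.42, 9.77, 6.65 and 10.03 in mutant 1 to 4, with a difference of 3.92 (SE 0.64, limma adjusted p = 0.00557). The adjusted p was 0.111 without the dye term, and the difference was 2.12 or 5.71 with an array left out. Here too the wild-type females and mutant 3 were low and the other 5 hearts high. The single member with the opposite direction was chr13:22110479-22116629 (reverse), at 7.58, 8.10, 7.55 and 7.26 in wild type 1 to 4 and 7.04, 7.33, 8.33 and 7.58 in mutant 1 to 4. Its highest heart was mutant 3 and its lowest mutant 1, and the difference was -1.20 (SE 0.26, limma adjusted p = 0.018), with an adjusted p of 0.123 without the dye term. Among the strand pairs named above, the reverse probe of chr8:91569369-91594119 and the forward probe of chr2:168804720-168854970 also passed, with differences of 2.75 and 2.16 (limma adjusted p = 0.00411 each), while their opposite strands had -0.11 and 0.01. Without the dye term their limma adjusted p was 0.114 and 0.198.

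In the wide strand pairs the dim strand had the larger median genotype by sex difference. Among the 168 pairs more than 2 apart, the dimmer strand had a median difference of 0.34 and the brighter strand of 0.06. The difference was above 0 in 118 of the 168 dimmer and 93 of the 168 brighter probes, beside 65.9% of all members and 44.2% of all features. Its median over all members was 0.20. The part of brightness in this was not tested. Over all members the called share was close on the 2 strands, with 227 forward (16.3%) and 243 reverse (17.0%) members. By chromosome the share called was highest on X, with 28 of 93 members (30.1%), and on chromosome 12, with 37 of 132 (28.0%), and lowest on chromosome 9, with 11 of 113 (9.73%). Over all chromosomes 16.7% of members and 9.31% of all features passed. No share over all features by chromosome was at hand, and no test of these shares was made. Some called members are neighbours, so members of a chromosome are not taken as independent.

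Neighbouring members read alike only in part. Outside chromosome 18, 2230 of 2725 members lay within 100 kb of another, in 707 groups. The largest group held 14 members of 11 intervals in chr8:122712014-123008463, with mean levels from 7.25 to 12.78 and genotype log2 ratios from -0.10 to 0.18. Its genotype by sex difference was above 0 in 13 of 14 members, with a median of 0.38, and 2 passed. Over all members the difference was above 0 in 65.9% and 16.7% passed, beside 44.2% and 9.31% of all features. Counts in groups this small are given as values only. A group of 12 members in chr12:110738120-110988678 had levels from 7.05 to 9.73 and genotype log2 ratios from -0.16 to 0.08, with 3 members past the genotype by sex threshold. There, chr12:110944403-110988678 had a difference of 1.71 on its reverse strand, at a level of 7.32, and of 0.00 on its forward strand, at 9.73.

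The third group held 11 members in chr6:30983012-31293337 and was the brightest of the 3, with a median level of 8.94. None of its members passed the genotype by sex term. Its bright reverse member chr6:31115515-31168433 had log2 levels of 11.73, 10.87, 10.83 and 10.12 in wild type 1 to 4 and 9.61, 11.09, 10.12 and 10.28 in mutant 1 to 4, which overlapped, with a genotype log2 ratio of -0.61. The bright forward member chr6:31170350-31287353 kept to 12.56 to 13.02 in all 8 hearts.

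Long noncoding RNA genes with a RefSeq name served for comparison. Of 30 listed genes 17 were measured, with levels from 7.78 for Mirg to 15.31 for Neat1, the scaffold RNA of nuclear paraspeckles. None passed in either test, and 4 of the 17 had a genotype log2 ratio above 0, with a median of -0.08. Mhrt had log2 levels of 13.73 to 14.78 in wild-type and 13.85 to 14.77 in mutant hearts, and a genotype log2 ratio of -0.04 (SE 0.16). The genotype by sex difference had a median of -0.11 over the 17 genes and was above 0 in 6, the largest being 0.75 (SE 0.27, limma adjusted p = 0.155) for Airn, the antisense transcript of the imprinted Igf2r locus. Airn was lowest in mutant 3 at 10.67 and lay between 11.16 and 12.07 in the other hearts.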

How the data were processed

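Per the file headers, the authors scanned 4 arrays and extracted spots with Agilent Feature Extraction 10.7.3.1 on an mm9 grid. The deposited intensity values used were median spot and background brightness; mean signals, planned at first, were replaced by these medians. The deposited 0 or 1 flags gave detection, saturation and non-uniform spots. The log2 series matrix, deposited by the authors, and the processed intensities served as alternatives; the matrix's normalization is not given in the sources used here. Background was corrected by normexp (offset 50) and ratios by loess within arrays, with non-uniform spots set missing (8 members have such a value), in limma 3.58.1 under R 4.3.3. Levels are channel values after Aquantile scaling. Fits used the genotype, a dye term and, for sex, an interaction, adjusted by Benjamini-Hochberg over 21823 features, two-sided. The number of arrays limits the precision. The fits were tested on simulated data only for recovering planted effects, with noise independent between features. Such data hold no deviation of a heart shared by many features, so they cannot judge the genotype by sex calls. RefSeq symbols came from the GRCm38.p6 table.

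Members, lists and rules were chosen with earlier results of these data known. Named members were those with the smallest genotype p and 1 sign on all arrays (6 per direction), the 10 brightest, up to 6 per direction by genotype by sex difference, the widest and brightest strand pairs (4 of each kind), the 5 with the largest SD and the 3 largest groups within 100 kb. None was taken from chromosome 18. Alternatives changed the background correction, normalization, filter, probe choice, pairing and arrays.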

Additional observations from a re-analysis of the deposited data

Results flagged for a closer look

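Among the named members 104 groups of 4 hearts were examined for a heart far from the other 3, and 8 had one. Chance gives about 1 in 20 for groups not chosen by their values, which does not hold here: some of these members were named for a large SD or genotype by sex difference, and several are neighbours. Mutant 3 was the low heart in 5 of them. It stood at 7.61 against 12.03 to 12.65 in chr5:14943275-14944205 (forward), at 8.09 against 12.32 to 12.95 in chr5:15146475-15170100 (forward), and at 7.48 against 10.84 to 11.30 in chr5:15033568-15033987 (forward). It stood at 10.23 against 12.47 to 12.52 in chr8:91569369-91594119 (reverse) and at 6.50 against 7.29 to 7.34 in chr5:26323150-26357875 (forward). In that last member wild type 2 was also apart, at 6.66 against 7.17 to 7.26. Mutant 1 was low in chr6:116092274-116144199 (forward), at 16.55 against 16.88 to 16.93, and wild type 4 in chr13:108548345-108679004 (reverse), at 14.33 against 14.83 to 14.85.

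The genotype by sex term of limma called 470 members (16.7%), against 9.31% of all features, and called 0 with separate channels, the array as a random block, processed signals, the authors' matrix, median centring or no dye term. The fits that called 0 members called no feature of the whole set either. On the log2 scale, female minus male, the named members had 5.62, 5.39 and 4.52 on chromosome 5 in the order given above. The difference was 4.34 in chrX:92139043-92140820 (reverse). The other X-linked ones had 3.95 in chrX:120812236-121038407 (reverse), 3.66 in chrX:120976609-120977281 (forward) and 3.90 in chrX:120590872-120598071 (reverse). Further values were 3.92 in chr4:3009566-3009932 (reverse), 2.75 in chr8:91569369-91594119 (reverse), 2.16 in chr2:168804720-168854970 (forward) and -1.20 in chr13:22110479-22116629 (reverse).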

How the results depend on the processing

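The count of 0 members between genotypes was 0 under all 15 alternatives run. In those that changed the values or the model, 4 to 48 members had an unadjusted p under 0.05. The main fit left Pus1 uncalled too, so a repeated count of 0 is not evidence that members were unchanged. The members' median log2 ratio of -0.05 turned to 0.02 with median centring, 0.03 without array 3 and 0.01 without array 4. That median ranged from -0.12 to 0.03 over arrays left out. The 470 members of the genotype by sex term became 0 with median centring, processed signals, the authors' matrix, separate channels with no replicate block and the array as a random replicate block, and 242 when detection in all 8 hearts was required. In fits chosen after seeing the data it was 0 with no dye term (671 at an unadjusted p under 0.05) and from 0 to 222 with no dye term and an array left out, where 222 came without array 4. It was 336 to 526 under the other 4. With the dye term and an array left out no test was possible. The median difference stayed above 0, from 0.08 to 0.34. Of 206 values of the 11 named members with a call none turned sign, and of the 162 with a test 101 lost the call. The 178 genotype values of named members also kept their sign. Kept signs are no sign of stability here, since they follow in large part from the choice of members. Those named for genotype had 1 sign on all 4 arrays. Those with a call had both female ratios on one side of both male ratios. The interval minus NM_ level of -1.49 was -1.96 with processed signals and -0.81 with no filter on dim probes, where all 4607 names entered. The median strand difference, averaged over hearts, was 0.08, and 0.15 with processed signals and -0.01 with no filter. The share of wide strand pairs ran from 18% to 43.7%. The main fit pairs the hearts by array; over the members, deviations of the paired hearts from their group means correlated at -0.61, -0.32, -0.48 and 0.63 on arrays 1 to 4. Signal near background limits the dimmer members.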
